A study of Mus musculus with 4 samples.

Results

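Guanylate-binding proteins are large GTPases of the dynamin superfamily, and their genes are among those most strongly induced by interferons. In infected cells the proteins gather on the membranes of pathogens and of the vacuoles that hold them, and they help to break these membranes and to start inflammasome signalling. Some members carry a lipid anchor at their carboxy terminus that holds them on membranes. In the mouse the genes lie in 2 clusters, on chromosomes 3 and 5.

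The family comprised 10 genes, taken by listed gene name from the 55450 genes of the count table: *Gbp2*, *Gbp2b*, *Gbp3*, *Gbp5* and *Gbp7* on chromosome 3, and *Gbp4*, *Gbp6*, *Gbp8*, *Gbp9* and *Gbp10* on chromosome 5. The family was selected on its loaded against unloaded values in these same libraries. All values from that contrast, adjusted p-values included, therefore serve as a description of the members and support nothing further. All 10 genes passed the filter on low counts that left 16269 genes for testing, and *Gbp8* passed it with 19, 15, 13 and 0 counts in the 4 libraries.

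RNA-seq of ribosomal RNA-depleted RNA was made from the osteocyte-like line MLO-Y4, which is of mouse origin, in 2 unloaded and 2 loaded samples. Loaded cells grew on UniFlex plates, which have an elastic silicone bottom coated with type I collagen, and were given 12 h of equiaxial stretch, with a strain of 20% and a frequency of 0.5 Hz. Unloaded cells grew on ordinary 6-well plates and stood for 12 h in the incubator of the same device. Loading and plate surface therefore cannot be told apart, all cells are 1 cell line, and the labels do not say whether replicates were separate cultures, so that p-values measure only the spread between these samples. In bulk RNA, fewer cells of a kind and less RNA per cell cannot be told apart either.

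Total counts per library ranged from 28941994 to 32185693, and 3 counts, the floor used here, equal 0.093 to 0.103 CPM, that is, counts scaled to a common library size. The floor covers counting error only. Of 13 osteocyte and osteoblast markers, 7 had more than 3 counts in every library, with a summed level of 3166 to 3235 CPM in unloaded and 3133 to 3212 CPM in loaded cells, nearly all from *Col1a2*, *Col1a1*, *Gja1* and *Pdpn*. Among markers of mature osteocytes *Mepe* had no count, *Sost* had 4 counts in 1 library and *Dmp1* had 12 to 14 counts per library. *Phex*, another marker of the list, had 1270 to 1662 counts per library.

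The 5 genes on chromosome 3 lie on the plus strand within 144031 bases, in the order *Gbp5*, *Gbp7*, *Gbp3*, *Gbp2b* and *Gbp2*, with 1422 to 21637 bases between neighbours. Their promoters were examined for the interferon-stimulated response element, a sequence bound by IRF proteins. A core of GAAA, any 2 bases and GAAA again was searched on both strands of 300-base windows, from 250 bases before to 50 bases after the RefSeq start (GRCm38.p6). These windows were at hand for the 5 chromosome 3 members only, with 2 for *Gbp3*. The core was in 5 of the 6 windows, 1 for each gene, and in 3.44% of the 32851 windows of all genes. In 4 of these 5 the core was followed by CT, an extended form that occurred in 0.271% of windows. The stretches of 30 bases around the matches are shown because the match is shared by the whole cluster while its position differs. They are written 5′ to 3′ on the plus strand, with the match in capitals, which is on the opposite strand in every case.

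*Gbp5*, chr3:142496758-142496787: aacttgtgtAGTTTCAATTTCagtttagag
*Gbp7*, chr3:142530272-142530301: tgtgtgtgcAGTTTCAGTTTCagttctcca
*Gbp3*, chr3:142559991-142560020: ggacacAGTTTCAGTTTCTATTTCccagat
*Gbp2b*, chr3:142594700-142594729: gtacttctaaTTTCACTTTCttctttatca
*Gbp2*, chr3:142620593-142620622: aactcttttAGTTTCACTTTCactgtctta

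The match lay close to the start in *Gbp2* (bases -61 to -50), *Gbp7* (-55 to -44) and *Gbp3* (-47 to -30, where 2 matches overlap). It lay farther upstream in *Gbp2b* (-137 to -128, the core alone) and in *Gbp5* (-167 to -156). A match is a run of letters and not a measured binding site, and GENCODE places the start of some of these genes elsewhere than RefSeq does.

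The 5 genes on chromosome 5 lie on the minus strand within 279549 bases, and the gene models of *Gbp8*, *Gbp9* and *Gbp4* overlap. Their coding sequences were far more alike than those of the other cluster. Aligned identity within chromosome 5 ranged from 90.2% to 98.4% (median 91.3%, 10 pairs). Within chromosome 3 it ranged from 67.3% to 82.5% (median 69.6%, 10 pairs), and between the chromosomes from 67.5% to 76.9% (median 70.6%, 25 pairs). The closest pairs on chromosome 3 were *Gbp2* with *Gbp2b* (82.5%) and *Gbp3* with *Gbp7* (79.5%). *Gbp3* and *Gbp7* were also the chromosome 3 members nearest in sequence to the chromosome 5 genes, at 75.3% to 76.9%.

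**Figure D1:**
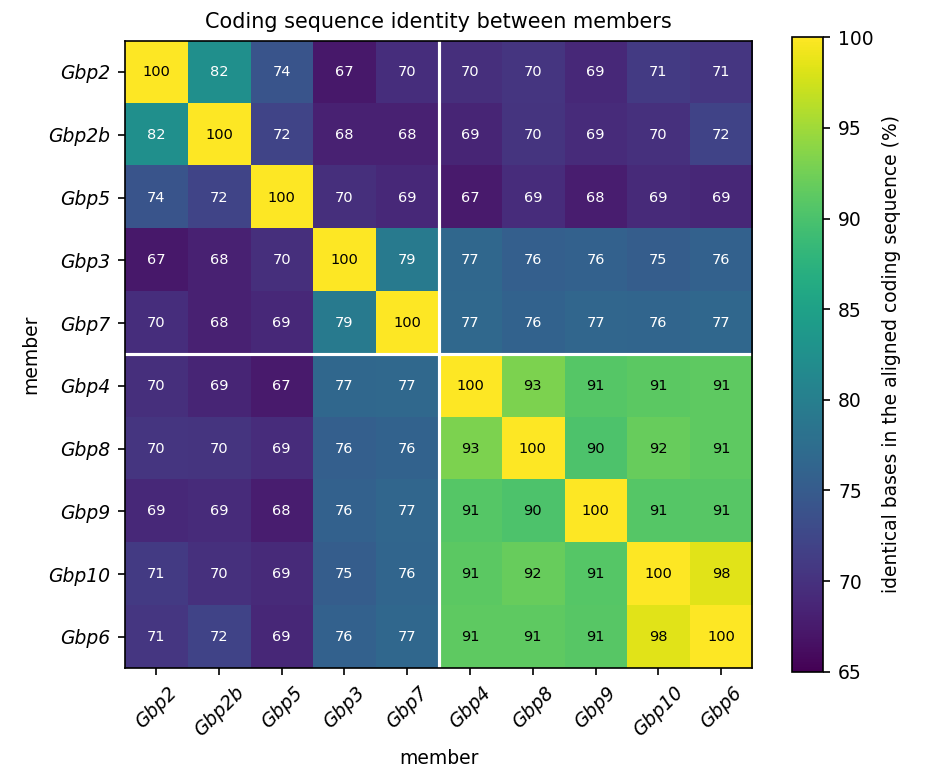
Percent of identical bases between the aligned coding sequences (GENCODE M21) of each pair of the 10 members, with white lines between the chromosomes. The chromosome 5 block lies at 90.2% or above, and chromosome 3 pairs reach 82.5% at most.

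Near-identical sequence matters here because short reads from it cannot be placed with certainty. *Gbp6* and *Gbp10* shared 98.4% of aligned coding bases, with an unbroken common run of 421 bases. The stretch below, coding bases 1287 to 1346 of both genes (GRCm38, GENCODE M21), is shown because 60 bases hold only 1 difference, in capitals.

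*Gbp6*: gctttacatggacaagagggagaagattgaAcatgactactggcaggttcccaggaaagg
*Gbp10*: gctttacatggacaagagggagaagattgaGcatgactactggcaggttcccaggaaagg

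The *Gbp6* stretch is also found, letter for letter, in *Gm43302*, a protein-coding gene model that spans both genes (chr5:105214907-105293695) and has 1834 of its 1836 coding bases in common with *Gbp6*. Of all stretches of 100 bases in the transcripts of *Gbp10*, 73.5% also occurred in another gene, against 64.5% for *Gbp6*, 10.01% for *Gbp7*, 4.39% for *Gbp8*, under 2% for *Gbp9* and *Gbp4*, 0.694% for *Gbp3*, 0.143% for *Gbp5* and none for *Gbp2* and *Gbp2b*. The read length is not known here, and with stretches of 50 bases the shares were higher, at 84.1% for *Gbp10*, 70.7% for *Gbp6*, 18.1% for *Gbp8*, 12.7% for *Gbp7*, 8.05% for *Gbp9*, 7.78% for *Gbp4* and 1.44% to 3.75% for the other 4 genes. The share of *Gbp7* at 100 bases was nearly all shared with *Gm43802*, a processed pseudogene on the same strand inside its exons, which had 6 to 10 counts per library. The counts of *Gbp6* and *Gbp10* are therefore uncertain one by one, and those of the remaining 8 genes less so.

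Levels were compared between genes per kilobase of exon (RPKM, CPM divided by exon length). In unloaded cells *Gbp2* was highest at 45.2 ± 0.962 RPKM (SD, n = 2 here and below), followed by *Gbp2b* at 32.7 ± 1.31. *Gbp3* at 28.2 ± 0.340 and *Gbp7* at 27.2 ± 1.67 did not differ beyond their spread. The chromosome 5 genes were lower, and all 5 lay below these 4.

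On chromosome 5, *Gbp9* at 6.70 ± 1.83 RPKM and *Gbp4* at 6.33 ± 0.0856 did not differ beyond their spread in unloaded cells. *Gbp5* followed at 2.81 ± 0.192, as the lowest gene of chromosome 3. *Gbp10* at 0.876 ± 0.195 and *Gbp6* at 0.688 ± 0.189 were again inseparable, and *Gbp8* was last at 0.167. With the length of the longest transcript in place of all exons, *Gbp3* (34.4 RPKM) passed *Gbp2b* and *Gbp4* (10.5 RPKM) passed *Gbp9*. These places in the order therefore depend on the length used. *Gbp6* (0.965 RPKM) and *Gbp10* (0.962 RPKM) stayed inseparable, with their order reversed.

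**Figure D2:**
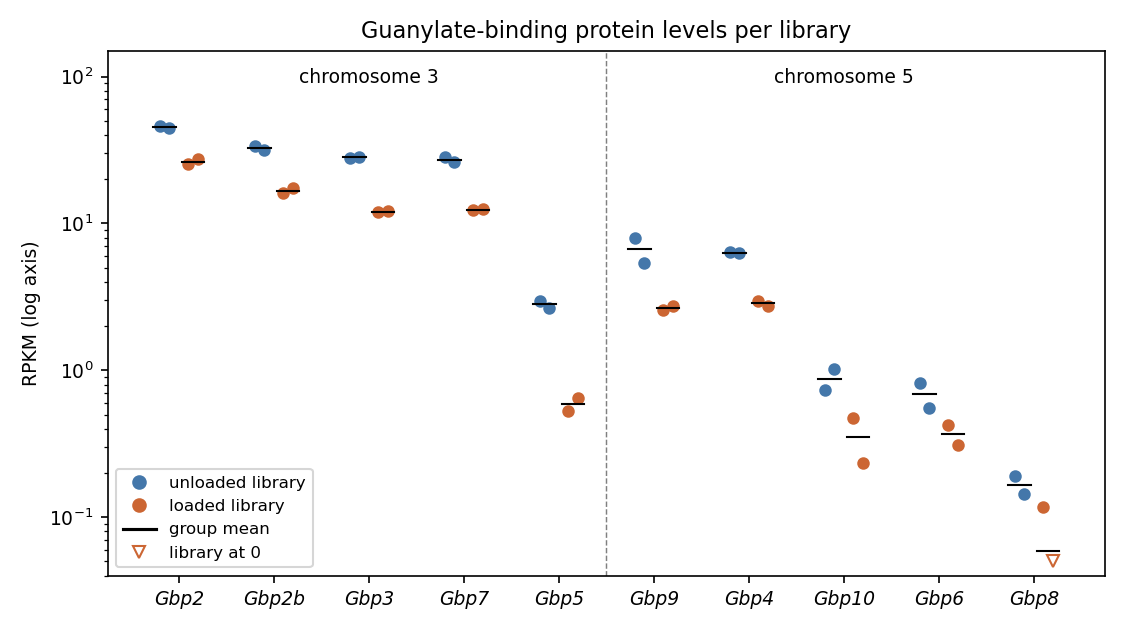
Level of each member in each library, in RPKM on a log axis, with the group mean as a bar; chromosome 3 genes stand to the left of the dashed line. For every member both loaded libraries (orange) lie below both unloaded libraries (blue), and the open triangle marks the loaded library in which *Gbp8* had no count.

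All 10 members were lower in loaded cells, with both loaded libraries below both unloaded libraries in 10 of 10 genes, an arrangement found in 24.5% of all tested genes. All 10 fold changes were negative, against 51.5% of all tested genes. Their median log2 fold change was -1.19, beside -0.01 over all 16269 tested genes. At an adjusted p under 0.01 in edgeR's quasi-likelihood test, 2 of 10 members were called lower (background 0.0861% of tested genes) and 0 higher (background 0.0123%), and at 0.05 the numbers were 6 (background 0.565%) and 0 (background 0.338%). DESeq2 called 7 of the 9 members that it gave an adjusted p lower at 0.01 (background 1.55%) and 0 higher (background 1.36%). At an unadjusted p under 0.05, 9 members were lower (background 7.46%) and 0 higher (background 6.87%). Since this contrast chose the family, nothing is read from these shares.

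*Gbp7*, a member described in the assembly of the phagocyte NADPH oxidase and in the capture of damaged vacuoles, had the most counts of the family. It lies at chr3:142530342-142550149 and had 4635 and 4434 counts in unloaded and 2233 and 2085 in loaded cells. In CPM these were 160 and 146 against 69.2 and 70.0, a log2 fold change of -1.14 (SE 0.0802, edgeR adjusted p = 0.00813). The loaded libraries lay close together at less than 50% of either unloaded library.

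*Gbp3* (chr3:142560026-142573209), the nearest relative of *Gbp7*, had 91.4 and 93.0 CPM in unloaded and 38.9 and 39.7 CPM in loaded cells. Its log2 fold change was -1.23 (SE 0.0878, edgeR adjusted p = 0.00813), and the libraries of each group nearly coincided. Within each library the ratio of *Gbp3* to *Gbp7* counts was 0.573 and 0.635 unloaded and 0.562 and 0.568 loaded, so that the pair moved almost in step, with the loaded ratios slightly the lower. *Gbp3* and *Gbp7* were the only members below 0.01 in edgeR's test, and neither was when replicate 1 or replicate 2 of the loaded cells was left out (adjusted p 0.0342 to 0.0399, and 0.00325 to 0.00713 without either unloaded library).

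*Gbp5*, which acts in inflammasome assembly and is anchored to membranes by a lipid, had the most negative fold change of the family. It lies at chr3:142493978-142522344 and had 568 and 538 counts in unloaded and 114 and 129 in loaded cells. The mean level went from 18.7 ± 1.28 to 3.93 ± 0.562 CPM, which is 4.75-fold lower, and the log2 fold change was -2.25 (SE 0.179). Among the 13324 genes of at least 1 CPM this was the change ranked 21 from the lowest. Its edgeR adjusted p of 0.0108 missed the threshold of 0.01, and DESeq2's was 3.93e-14.

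*Gbp2b*, the gene that encodes mouse GBP1, had 95.03 and 89.8 CPM in unloaded and 45.5 and 49.1 CPM in loaded cells. It lies at chr3:142594847-142619179, and its log2 fold change was -0.97 (SE 0.0941). *Gbp2*, a lipid-anchored member that coats the vacuole of *Toxoplasma*, starts 1422 bases further on (chr3:142620602-142638008) and had 115 and 112 CPM in unloaded and 63.8 and 68.7 CPM in loaded cells. Its log2 fold change of -0.78 (SE 0.0837) was the smallest of the family, and *Gbp2* remained the most abundant member per kilobase in loaded cells at 26.3 ± 1.36 RPKM. The edgeR adjusted p was 0.0197 for *Gbp2b* and 0.0232 for *Gbp2*.

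On chromosome 5, *Gbp4* (chr5:105115767-105139586), which has been described as a partner of IRF7, had 1391 and 1424 counts in unloaded and 721 and 616 in loaded cells. Its level went from 47.4 ± 0.641 to 21.5 ± 1.19 CPM, with a log2 fold change of -1.14 (SE 0.0997, edgeR adjusted p = 0.0137). *Gbp9* (chr5:105077630-105139539) had 1200 and 847 counts in unloaded and 429 and 421 in loaded cells. Its unloaded libraries stood farther apart than those of *Gbp4*, at 41.3 and 27.9 CPM against 13.3 and 14.1 CPM loaded.

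The log2 fold change of *Gbp9* was -1.34 (SE 0.197, edgeR adjusted p = 0.0510), and without the lower unloaded library, replicate 2, it was -1.59 with an adjusted p of 0.00333 (0.00333 to 0.179 with each library left out in turn). *Gbp9* and *Gbp4* share 60 bases of exon, and the ratio of their counts was 0.863 and 0.595 in unloaded and 0.595 and 0.683 in loaded cells, with the first unloaded library apart from the other 3.

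*Gbp10* (chr5:105215699-105239533) had 83 and 119 counts in unloaded and 59 and 27 in loaded cells, with a difference of -1.30 (SE 0.422) on the log2 scale. *Gbp6* (chr5:105270702-105293698) had 142 and 100 counts in unloaded and 82 and 55 in loaded cells, with a difference of -0.90 (SE 0.326). Both genes are among the members described in resistance to intracellular bacteria. The order of their unloaded libraries was opposite, since replicate 1 was the higher for *Gbp6* and the lower for *Gbp10*.

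*Gbp8* (chr5:105014150-105139540) was near the floor, at 0.654 and 0.495 CPM in unloaded and 0.403 and 0 CPM in loaded cells, with a log2 fold change of -1.47 (SE 1.22). For *Gbp10*, *Gbp6* and *Gbp8* the edgeR adjusted p was 0.248, 0.299 and 0.645, so that none passed the test. Fits without 1 library gave -1.90 to -0.891 for *Gbp10* and -1.16 to -0.58 for *Gbp6*. For *Gbp8* such fits gave -1.66 to -0.508 without unloaded replicate 1 or 2 or loaded replicate 2, and without loaded replicate 1 no fold is given, since the remaining loaded library was at 0.

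**Figure D3:**
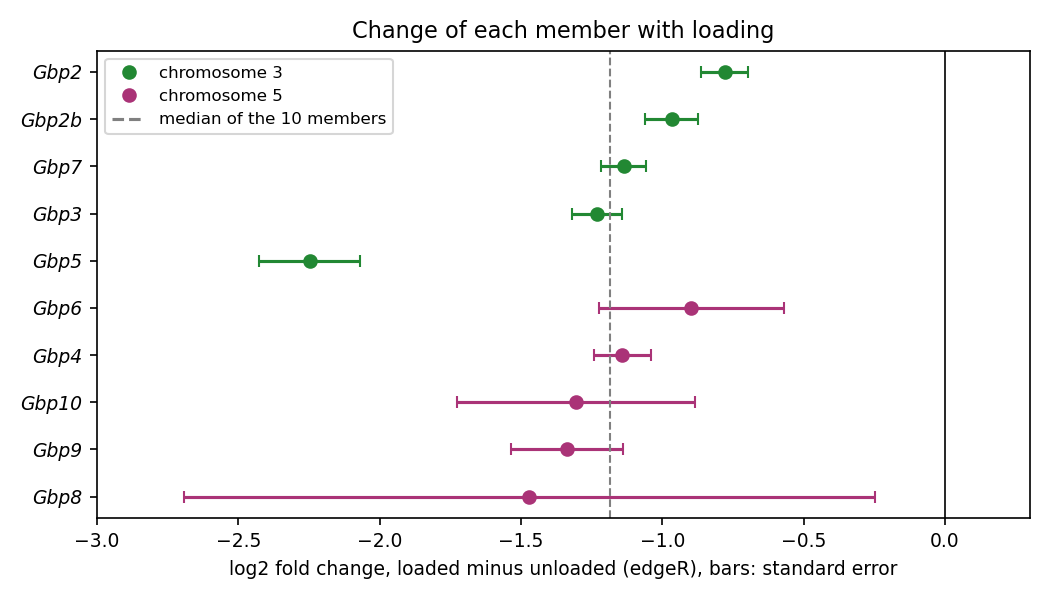
Log2 fold change of each member, loaded minus unloaded, from edgeR, with the standard error as a bar, green for chromosome 3 and purple for chromosome 5; the dashed line is the median of the 10 members at -1.19. *Gbp5* stands alone at -2.25, the 4 other chromosome 3 genes lie between -1.23 and -0.78, and the widest bars belong to the rarest genes.

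The counts of *Gm43302* bear on *Gbp6* and *Gbp10*, since its exons cover 28.99% of the exon bases of *Gbp6* and 46.3% of those of *Gbp10* on the same strand. *Gm43302* had 370 and 395 counts in unloaded and 109 and 150 in loaded cells, more than both members together in 3 of the 4 libraries, and a log2 fold change of -1.62 (SE 0.233, edgeR adjusted p = 0.0476). With the 3 genes counted as 1, which was added after the data were seen, the locus had 595 and 614 counts in unloaded and 250 and 232 in loaded cells. In CPM these were 20.5 and 20.3 against 7.75 and 7.78. The libraries of a group then differed by less than for each gene alone, and the log2 fold change was -1.39 (SE 0.133, edgeR adjusted p = 0.0185). Other members of the family by name were rarer, with 12, 0, 5 and 0 counts for the polymorphic pseudogene *Gbp11* and none in any library for *Gbp2-ps*.

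**Figure D4:**
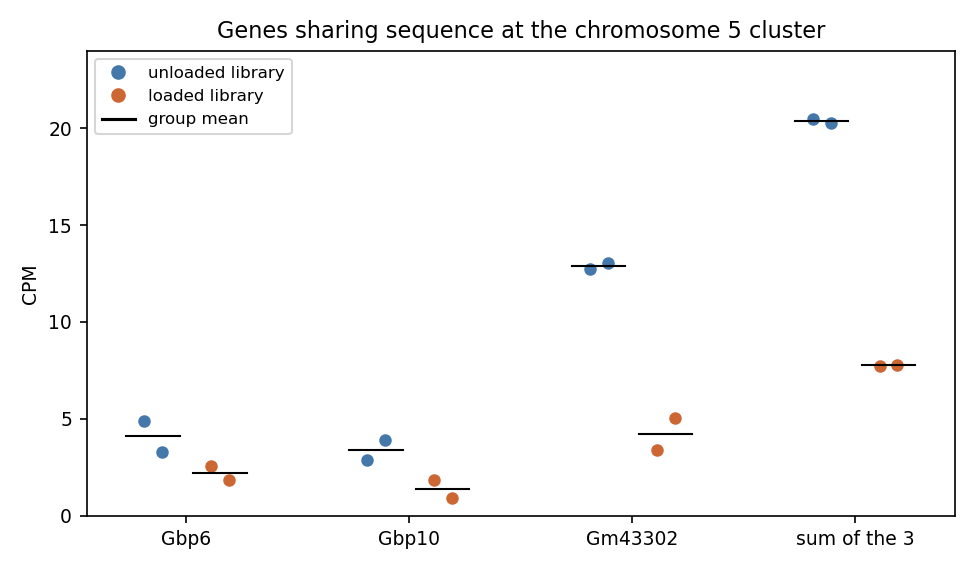
Level in CPM of *Gbp6*, *Gbp10*, *Gm43302* and their sum in each library, with the group mean as a bar, unloaded in blue and loaded in orange. *Gbp6* and *Gbp10* scatter within both groups and *Gm43302* within the loaded group. The sum lies at 20.3 and 20.5 CPM in the unloaded and at 7.75 and 7.78 CPM in the loaded libraries.

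Between the clusters, the summed counts of chromosome 3 were 5 to 6 times those of chromosome 5 in the 4 libraries. Chromosome 3 summed to 481 and 459 CPM in unloaded and 221 and 232 CPM in loaded cells, a log2 difference of -1.05 (replicate SD 0.0487). Chromosome 5 summed to 97.6 and 82.7 CPM in unloaded and 40.4 and 37.5 CPM in loaded cells, a log2 difference of -1.21 (replicate SD 0.131). The clusters thus differed by 0.15 on the log2 scale, about the replicate SD of that difference (0.123). It was 0.066 without unloaded replicate 1, 0.064 without loaded replicate 2, 0.238 without unloaded replicate 2, 0.24 without loaded replicate 1, and 0.254 with *Gbp7* and *Gbp4*, the members with the most counts, left out of the sums. No test was run on these sums, since the members were chosen with results known.

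The ratio of chromosome 5 to chromosome 3 counts was 0.203 and 0.180 in unloaded and 0.183 and 0.162 in loaded cells, so that the groups overlapped. With *Gm43302* added to chromosome 5 the ratios were 0.229 and 0.209 unloaded and 0.198 and 0.184 loaded, which did not overlap, and the difference between the clusters was 0.20. Chromosome 5 gave 16.9% and 15.3% of the family's counts in unloaded libraries (exact 95% binomial intervals 16.3% to 17.4% and 14.7% to 15.8%) and 15.5% and 13.9% in loaded libraries (14.7% to 16.3% and 13.2% to 14.7%). These intervals cover counting error only and are too narrow for replicate differences, since replicates differed over all genes with a chi-square per degree of freedom of 17.6 (unloaded) and 19.1 (loaded).

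The cluster with more counts also had more calls. At an edgeR adjusted p under 0.05, 5 of 5 chromosome 3 genes and 1 of 5 chromosome 5 genes were lower (background 0.565%). At 0.01 these were 2 and 0 (background 0.0861%). On chromosome 5, where none passed 0.01, 4 genes were lower at an unadjusted p under 0.05 (background 7.46%) and DESeq2 called 2 lower (background 1.55%). These values chose the family, so that the calls only describe it. The median log2 fold change was -1.14 on chromosome 3 and -1.30 on chromosome 5. The latter is the value of *Gbp10*, whose counts are uncertain. Why the clusters differed in calls was not tested.

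Single members can differ by more than the clusters do, since a cluster sum averages over its members, so that nothing is read from that contrast. The members with the most and the least negative fold change, *Gbp5* and *Gbp2*, both lie on chromosome 3. The ratio of *Gbp5* to *Gbp2* counts, which no library size can affect, was 0.170 and 0.159 in unloaded and 0.0553 and 0.0630 in loaded cells. *Gbp5* thereby gave 3.38% and 3.28% of the family's counts unloaded and 1.35% and 1.61% loaded, while *Gbp2* went from 19.9% and 20.7% to 24.4% and 25.5%. *Gbp7*, *Gbp3*, *Gbp2b*, *Gbp4* and *Gbp9* also had lower ratios to *Gbp2* in both loaded libraries. In *Gbp3* the ratios were 0.792 and 0.830 unloaded and 0.609 and 0.578 loaded. Since *Gbp2* had the least negative fold change of the family, lower ratios to it restate that ranking and add nothing to it. Across the clusters, *Gbp4* and *Gbp7* kept overlapping ratios of 0.300 and 0.321 unloaded and 0.323 and 0.295 loaded.

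The nearest tested genes beside the clusters had fold changes near 0, with 1 exception. Not all were close by, since distances from the cluster ends ran from 63043 bases (*Kyat3*) to 3586073 bases (*Tspan5*), with *Rap1gds1* at 3418777 bases. Of the 12 nearest tested protein-coding genes, 3 on each side of each cluster, none had an adjusted p under 0.05 in edgeR or DESeq2, and 1 had an unadjusted p under 0.05. On chromosome 3 the log2 fold changes ranged from -0.12 (*Gtf2b*) to 0.19 (*Rap1gds1*), and the closest neighbours, *Kyat3* at 63043 bases and *Pdlim5* at 98282 bases, had -0.04 and 0.03. On chromosome 5 they ranged from -0.11 (*BC005561*) to 0.03 (*Lrrc8c*), apart from *Lrrc8d*, a subunit of the volume-regulated anion channel, with 1.003 (SE 0.284, adjusted p = 0.193) and levels of 19.6 and 37.8 CPM in unloaded and 59.1 and 56.1 CPM in loaded cells.

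Guanylate-binding proteins are transcribed downstream of interferon receptors, the JAK kinases and the STAT and IRF factors. Of 22 interferon and cytokine ligand genes, 1 had enough counts to be tested, *Tnf*, at a log2 fold change of -0.10, and 13 had no count in any library. *Ifnb1*, which encodes interferon beta, had 8 and 31 counts in unloaded and 4 and 0 in loaded cells, and *Ifng* had 2 counts in 1 loaded library. Apart from *Tnf* and *Ifnb1*, no ligand had more than 4 counts in any library.

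Of 17 receptors, kinases and transcription factors, all tested, none was called at 0.01 in edgeR, 5 were lower at 0.05, 10 were lower at an unadjusted p under 0.05 (7.46% of all tested genes), and DESeq2 called 8 at 0.01. None was higher, and the median log2 fold change was -0.50. *Irf7*, the master factor of type I interferon genes, had 511 and 531 counts unloaded and 186 and 138 loaded, a log2 fold change of -1.75 (SE 0.173, adjusted p = 0.0197). *Stat2*, a signal transducer of the type I interferon receptor, had -0.81 (SE 0.106, adjusted p = 0.0378).

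Immunity-related GTPases, very large GTPases and Mx proteins lie outside the family, and many of them are interferon-inducible. Of 20 tested, 2 fell at 0.01, 7 were lower at 0.05 and DESeq2 called 10, with a median log2 fold change of -0.78. Fold changes were negative in 18 and positive in 2. At an unadjusted p under 0.05, 14 were lower (7.46% of all tested genes) and 1 was higher (6.87%). The 2 genes that fell at 0.01 were *Gvin1* and its close copy *Gm4070*, both very large GTPases. Each had a log2 fold change of -1.27 and an adjusted p of 0.00813, and reads may have been split between them. *Irgm2*, a regulator of the other immunity-related GTPases, went from 41.3 and 39.8 CPM to 11.2 and 13.7 CPM (-1.70, SE 0.131, adjusted p = 0.0107).

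Other GTPases of the dynamin superfamily, which divide, fuse or shape membranes, were centred near 0. Of 10 tested atlastins, dynamins and mitofusins, none was called in edgeR at 0.05 or in DESeq2, 1 was higher at an unadjusted p under 0.05, and the median was -0.01. The smallest p belonged to *Mfn2*, a mitochondrial fusion protein, with a log2 fold change of 0.25 (SE 0.0670, adjusted p = 0.180), ahead of *Atl3* (-0.13) and *Dnm1l* (0.14).

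Genes that work with guanylate-binding proteins were examined next. Of 8 tested inflammasome and pyroptosis genes, all 8 had negative fold changes, and none was called at 0.01 in edgeR. At an unadjusted p under 0.05, 3 were lower (7.46% of all tested genes) and 0 higher (6.87%). *Zbp1*, a sensor of Z-form nucleic acids, was the 1 gene lower at 0.05 (background 0.565%; log2 fold change -1.29, SE 0.168, edgeR adjusted p = 0.0374). It was also the 1 gene called by DESeq2 (background 1.55%). The pyroptosis effector *Gsdmd* had -0.25 (adjusted p = 0.241) and the sensor *Nlrp3* had -0.997 (SE 0.371, adjusted p = 0.308), with a list median of -0.23. Of 10 ATG8 conjugation genes, which help to place the proteins on vacuoles, none was called by either tool or had an unadjusted p under 0.05, and the median was 0.06. The 3 with the smallest p were *Gabarap* (0.17), *Gabarapl1* (0.28) and *Atg7* (0.42).

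The lipid anchor is attached by prenylation and CaaX processing, and the list of 11 genes for these steps also holds enzymes that prenylate Rab proteins. None was called by either tool and 1 was higher at an unadjusted p under 0.05, with a median of 0.05. *Rabggtb*, a subunit of Rab geranylgeranyl transferase, had a log2 fold change of 0.28 (SE 0.0932, adjusted p = 0.261), followed by *Zmpste24* (0.16) and *Fdps* (0.11).

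**Figure D5:**
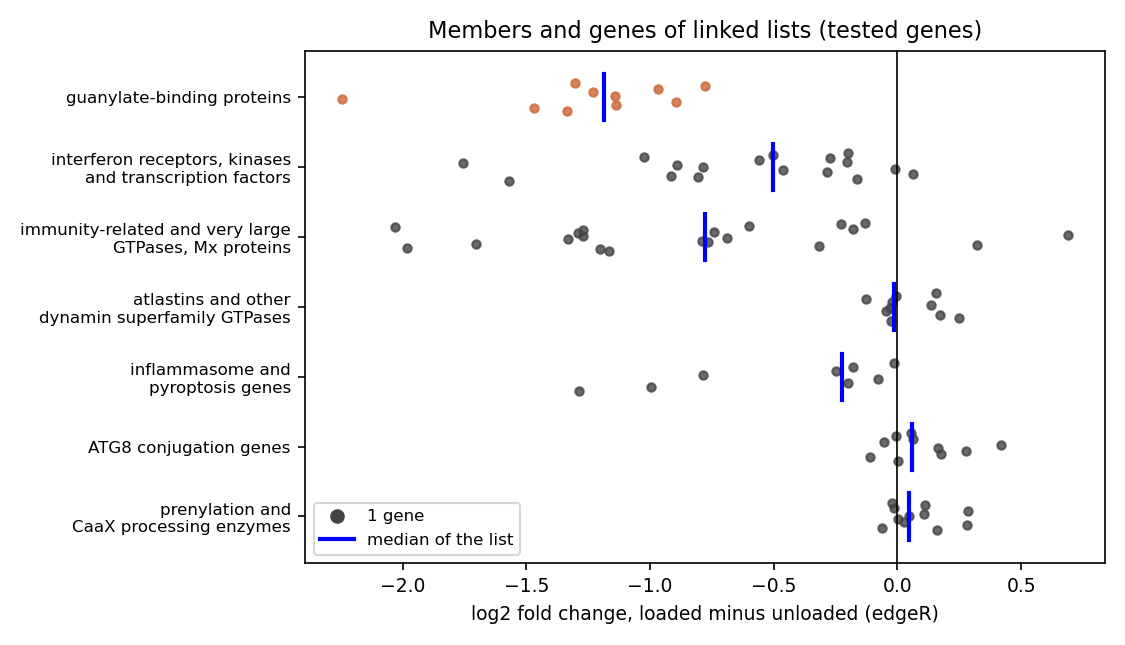
Log2 fold change, loaded minus unloaded, of each tested gene (points) in the family and in 6 linked lists, with the list median as a blue line. The members have a median of -1.19, the receptors and factors -0.50 and the immunity-related and very large GTPases with Mx proteins -0.78. Dynamins, ATG8 and prenylation genes have medians of -0.01, 0.06 and 0.05.

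Guanylate-binding proteins are also abundant in macrophages, so that markers of other cells were examined. Of 8 macrophage and monocyte markers, 3 had more than 3 counts in every library. Their summed level was 1581 to 1590 CPM in unloaded and 1563 to 1566 CPM in loaded cells, nearly all of it from *Csf1r* (log2 fold change -0.02). *Fcgr1* had no count, *Ptprc* and *Itgam* had at most 3 counts in any library, *Cd68* had -0.80 (SE 0.239, adjusted p = 0.216) and *Lyz2* had -0.34. Of 8 lymphocyte markers, 7 had no count, and 6 endothelial markers summed to 2.57 to 3.89 CPM unloaded and 2.01 to 3.29 CPM loaded, with *Kdr* at 0 in both unloaded and at 17 and 14 counts in the loaded libraries. The part of these values in the lower levels of the family was not tested.

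Among markers of the labelled cell type, *Pdpn*, which encodes the osteocyte protein E11, was the 1 gene with an adjusted p under 0.05, at a log2 fold change of 0.59 (SE 0.0703, adjusted p = 0.0334), opposite in direction to the members. *Phex* had 0.24 and *Runx2* had 0.17. Of the 9 tested markers of this list, 4 had a positive and 5 a negative fold change, with a median of -0.09.

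The genes outside the family whose pattern over the 4 libraries was most like that of *Gbp7*, the member with the most counts, were ranked by Euclidean distance of centred log2 CPM among 13279 genes. They were *Herc6*, a ubiquitin ligase of the interferon response (distance 0.0803), *Lpcat1*, an enzyme of phospholipid remodelling (0.0966), *Tgtp2*, an immunity-related GTPase that has a close copy (0.101), *C3*, the central complement component (0.111), and *Ikbke*, a kinase upstream of IRF factors (0.117). In *C3*, the most abundant, the levels were 417 and 419 CPM unloaded and 200 and 197 CPM loaded. With 4 libraries in 2 groups this likeness is mostly a likeness in fold change.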

How the data were processed

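Per the sources used here, the authors mapped reads to mm10 with HISAT2 2.1.0, assembled them with StringTie 1.3.5 and converted coverage to whole numbers with prepDE. The deposited table holds whole-number counts per gene, not normalized. Annotation release, strandedness and read length are not given in the sources used here. All 55450 identifiers match GENCODE M21 (GRCm38), used for coordinates, exon lengths and coding sequences. Members, gene lists and tests were chosen with earlier results of these data known.

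Genes were filtered with filterByExpr (minimum 10), TMM-normalized and tested with edgeR 4.0.16's quasi-likelihood F test (R 4.3.3). Benjamini-Hochberg adjustment was over 16269 genes, at 0.01. The study set that threshold on adjusted p-values from DESeq2 1.32.0, so that the edgeR calls here are not calls by the study's criterion. The SE is the log2 fold change over the square root of F. CPM and RPKM are TMM-scaled. Alternatives were DESeq2 1.42.0, limma-voom (limma 3.58.1), RLE factors, other filters, a replicate block and leaving out each library. The procedure was tested on simulated data. Coding sequences were aligned with Biopython 1.88. Promoters came from RefSeq (GRCm38.p6). Named genes are the members, the 3 smallest p per list and any below 0.01, the 3 nearest genes per cluster side, other *Gbp* genes, *Gm43302* and *Gm43802* (named after their values were seen), markers, and the 5 genes most like *Gbp7*. Protein sequences were not used here, and 1 gene that this rule names is not reported here.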

Additional observations from a re-analysis of the deposited data

How the results depend on the processing

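All 101 fold changes of the members under the alternatives were negative. Little else was possible, since every fit used the same libraries and both loaded libraries lay below both unloaded libraries for each member. The 101 include the *Gbp8* fit without loaded replicate 1. They also include the value of *Gbp6*, *Gbp10* and *Gm43302* counted as 1 gene, entered for both members. The number of calls depended on the setting, and the cause was not tested. Against 2 members lower at 0.01, DESeq2 gave 7, at least 10 counts in every library gave 4, an adjusted p under 0.05 gave 6, and no filter on low counts and the replicate block gave 0 each. Leaving out 1 library gave 0 to 4, with 0 without either loaded replicate 1 or 2 and 4 without unloaded replicate 2. Of the genes in the pathway lists 2 were lower, and DESeq2 gave 19, an adjusted p under 0.05 gave 13, no filter and the block gave 0 each, and leaving out 1 library gave 0 (without loaded replicate 1 or 2) to 3.

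With DESeq2, *Gbp5* (-2.24), *Gbp2b* (-0.959), *Gbp2* (-0.771), *Gbp9* (-1.329) and *Gbp4* (-1.133) passed 0.01, as did *Gbp5* (-2.243) and *Gbp4* (-1.137) with at least 10 counts in every library. *Gbp7* no longer passed with no filter (-1.137) or the block (-1.135), nor did *Gbp3* (-1.23 in both). Without 1 library, values ranged from -2.40 to -2.104 for *Gbp5*, which passed without either unloaded library, from -1.198 to -1.065 for *Gbp7* and from -1.247 to -1.211 for *Gbp3*, which both failed without either loaded library, and from -1.592 to -1.02 for *Gbp9*, which passed without unloaded replicate 2. These fits leave 1 library in a group and assume that it varies like the other group. The summed chromosome 3 change (-1.05) became -1.136 as the median of its members. Over the tested genes, deviations of same-numbered libraries from their group means correlated at -0.057, so that no broad pairing by replicate number was seen. A pairing that affects only some genes would not show in this value. Leaving out 1 library moved *Gbp6* (-0.58 without unloaded replicate 1), *Gbp8* (-0.508 without loaded replicate 2) and the difference between the clusters (0.064 to 0.24 over the 4 libraries) by over 1.5 times.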
